A study of Mus musculus with 9 samples.

Results

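MHC class II presentation genes were examined in whole mandibles of mice. The 9 genes, chosen by their symbols from the 27179 genes of the count table, were *H2-Aa*, *H2-Ab1*, *H2-Eb1*, *Cd74*, *H2-DMa*, *H2-DMb1*, *H2-Oa*, *H2-Ob* and *Ciita*. All 9 passed the filter on low counts that left 16329 genes for testing. The study asked how transcription in the mandible differs between wild-type (WT) controls and mice that lack FcγRIIB, an inhibitory receptor for IgG, and serve as a model of lupus. There were 5 WT and 4 FcγRIIB-/- libraries, all from C57BL/6 males of 6 months with no treatment, each made from poly(A) RNA of mandibles pulverized with the teeth. The FcγRIIB-/- mice were obtained on the C57BL/6 background, and the deletion is not limited to one cell type.

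Class II molecules are dimers of an α and a β chain that carry peptides from endosomes to the surface of a cell, where CD4 T cells read them. The invariant chain Cd74 guides newly made dimers to endosomes and fills their groove, H2-DM exchanges its last fragment for a peptide, and H2-O inhibits H2-DM. Ciita is the coactivator that sets transcription of this whole group, and B cells, dendritic cells, macrophages and activated epithelia are the cells best known to use it.

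All 9 genes had a lower fitted level in the libraries labelled FcγRIIB-/-, as did 8069 of all 16329 genes tested. *Ciita* fell 2.56-fold and *H2-Ob*, the β chain of the H2-O inhibitor, fell 2.76-fold. Both were lower in each of the 4 labelled libraries than in each of the 5 WT mice, as were 17.5% of all genes tested. *Cd74*, *H2-DMa* and *H2-DMb1* fell by smaller factors, of 1.59, 1.52 and 1.37. The classical chains *H2-Aa*, *H2-Ab1* and *H2-Eb1* and the H2-O α chain *H2-Oa* did not pass the test. For all 9 genes the highest mouse was WT replicate 2, and *Ciita* was the only one of them to pass with each mouse in turn left out.

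The libraries held between 21453880 and 28991631 counts. Levels are given in CPM, the count scaled to a common, normalized library size. The genotypes were compared by the quasi-likelihood test of edgeR, with p-values adjusted by Benjamini-Hochberg over all 16329 genes and a threshold of 0.05, and fold changes are FcγRIIB-/- over WT on the log2 scale with their standard error (SE). Over all genes, 19.3% passed as lower, 14% passed as higher, and the median log2 fold change was 0.01. *Fcgr2b*, the targeted gene, did not have a lower count where the label gives the deletion. It stood at 20.9, 38.3, 17, 23.1 and 20.7 CPM in WT 1 to 5 and at 26.5, 26.0, 26.6 and 32.1 CPM in the labelled libraries 1 to 4 (log2 fold change 0.21, SE 0.20, adjusted p = 0.442 by edgeR). Without WT replicate 2 it passed as higher (0.46, adjusted p = 0.0131 by edgeR), so every direction below is between libraries by their labels. The bone and tooth label was met, with *Col1a1*, the main bone collagen, at 31300 CPM and *Amelx*, the main enamel matrix gene, at 7280 CPM on average in WT.

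Of the 9 genes, 7 lie together on chromosome 17 of GRCm38 (mm10), within 224 kb from 34092379 to 34316674. In that order they are *H2-Oa* (gene identifier 15001), *H2-DMa* (14998), *H2-DMb1* (14999), *H2-Ob* (15002), *H2-Ab1* (14961), *H2-Aa* (14960) and *H2-Eb1* (14969). *Ciita* (12265) lies on chromosome 16 from 10480014 to 10531064. Class II promoters share an arrangement of short boxes just before the gene, the X box, bound by the RFX complex, and the Y box, bound by NF-Y, onto which Ciita assembles. The RefSeq promoter table for GRCm38.p6 held windows of 250 bases before to 50 bases after the gene start for 6 of the 9 genes. A core of the X box (GNAAC) followed by the Y box (GATTGG) with 20 to 45 bases between their first letters, on either strand, was found in 5 of these 6 genes. The pairs are given because Ciita is known to act on class II genes through these boxes. Capitals mark both matches, and each line runs 5′ to 3′ on the gene's own strand.
H2-Aa, chr17:34287861-34287916, minus strand: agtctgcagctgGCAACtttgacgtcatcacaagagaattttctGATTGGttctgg
H2-Eb1, chr17:34305764-34305818, plus strand: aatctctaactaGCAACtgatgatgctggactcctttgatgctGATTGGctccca
H2-DMb1, chr17:34153085-34153140, plus strand: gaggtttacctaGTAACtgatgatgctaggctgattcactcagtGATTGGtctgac
H2-Ob, chr17:34238806-34238858, plus strand: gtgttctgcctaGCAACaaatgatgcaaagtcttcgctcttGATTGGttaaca
H2-Oa, chr17:34092291-34092346, plus strand: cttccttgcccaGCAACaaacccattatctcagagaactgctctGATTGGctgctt

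The letters were chosen after these windows had been read, so the matches are a description. The X core began between 94 bases (*H2-DMb1*) and 76 bases (*H2-Oa*) before the gene start. The Y box followed 32 bases on in *H2-Aa*, *H2-DMb1* and *H2-Oa*, 31 in *H2-Eb1* and 29 in *H2-Ob*. Of all 32851 promoter windows in the table, 475 (1.45%) held such a pair. *H2-DMa* had 2 windows, and neither held the pair.

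Per base of exon, the range from the highest to the lowest gene was far wider than the change of any gene between the genotypes. Genes next to each other in the order could lie closer than that, as *H2-Ob*, *H2-Oa* and *Ciita* did. Levels between genes are compared in RPKM, the CPM per kilobase of exon. In WT, *Cd74* was the highest at 223 ± 74.5 RPKM (SD, n = 5). The classical chains followed, with *H2-Eb1* at 86.7 ± 27.7, *H2-Ab1* at 59.2 ± 18.7 and *H2-Aa* at 51.6 ± 16.3 RPKM (SD, n = 5). The peptide exchange chains were lower, with *H2-DMb1* at 13.5 ± 2.05 and *H2-DMa* at 3.61 ± 0.791 RPKM (SD, n = 5). The inhibitor chains and the coactivator were lowest, with *H2-Ob* at 1.30 ± 0.949, *H2-Oa* at 1.25 ± 0.964 and *Ciita* at 1.12 ± 0.619 RPKM (SD, n = 5). From *Cd74* down to *H2-Ob*, each gene was above the next in all 9 mice. The order of the classical chains rests on the exon lengths used, 3798 bases for *H2-Aa*, 2568 for *H2-Ab1* and 1944 for *H2-Eb1*. In CPM, *H2-Aa* was above both of the others in all 9 mice. *H2-Ob* was above *H2-Oa* in 5 of 9 mice and *H2-Oa* above *Ciita* in 5 of 9 mice, so the order of the last 3 genes was not settled at this depth.

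*Ciita* stood at 7.93, 21, 7.21, 10 and 7.18 CPM in WT 1 to 5 and at 5.26, 3.05, 3.77 and 4.56 CPM in the libraries labelled FcγRIIB-/- 1 to 4. WT replicate 2 had more than any other mouse, and the lowest WT mouse was still above the highest labelled library. The groups were thus separate, as they were with the labelled libraries lower for 17.5% of all genes tested. WT mice averaged 10.7 ± 5.90 CPM (SD, n = 5), and labelled libraries averaged 4.16 ± 0.957 CPM (SD, n = 4). *Ciita* fell by 1.35 on the log2 scale (SE 0.34, adjusted p = 0.0124 by edgeR), and the two-sided exact permutation test over all splits of the mice gave p = 0.00794, the smallest this design allows. Without WT replicate 2 the log2 fold change was -0.94 (adjusted p = 0.00616 by edgeR). In bulk tissue, fewer cells of a type and less RNA per cell cannot be told apart, here and for every gene described.

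**Figure D1:**
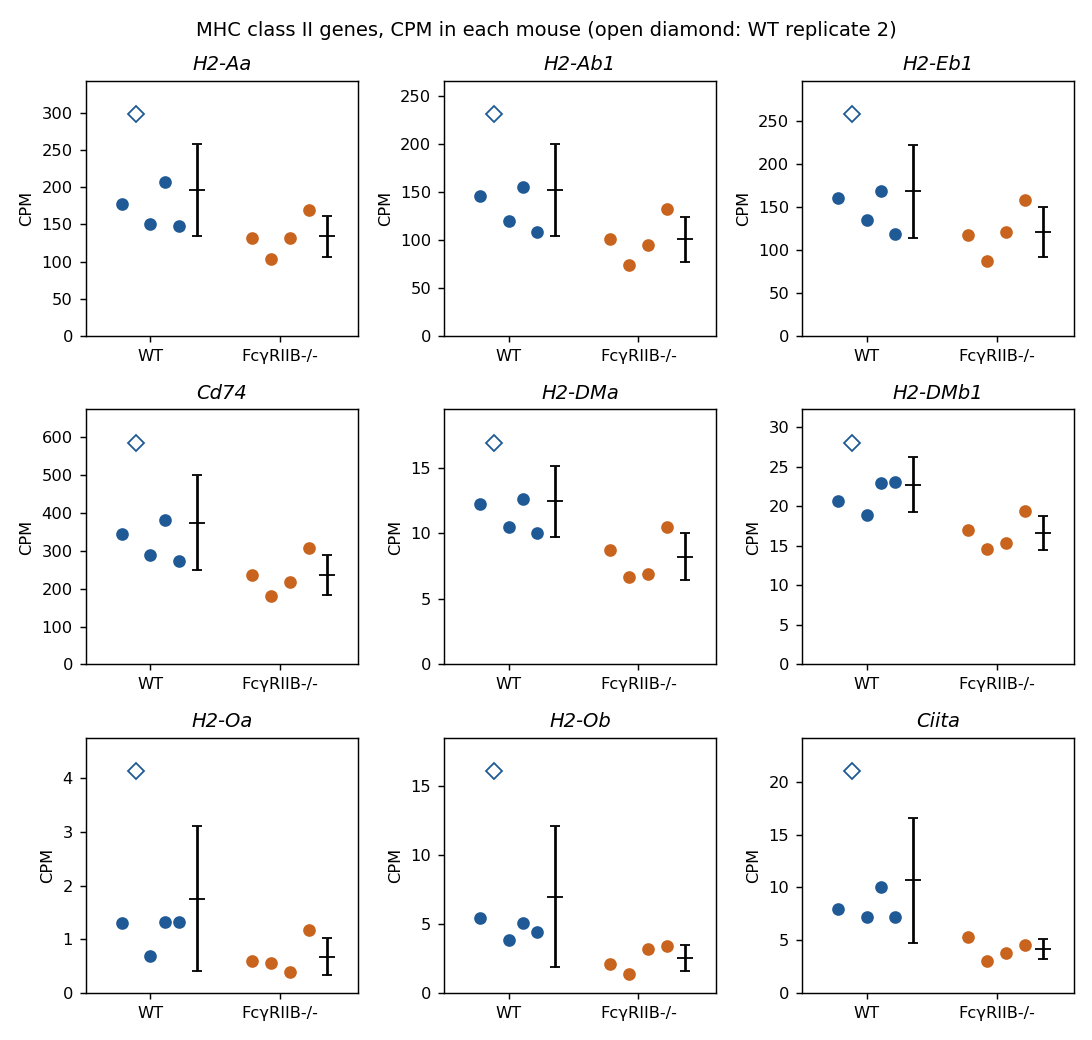
CPM of the 9 genes in each mouse, with a linear vertical axis from 0 in each panel. Points are mice, the open diamond is WT replicate 2, and bars beside the points give mean ± SD of 5 WT mice and 4 mice labelled FcγRIIB-/-. WT replicate 2 is the highest mouse in every panel, and the groups are separate for *H2-Ob* and *Ciita*.

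The chains of the class II dimer come first in the pathway. *H2-Aa*, the α chain of the I-A molecule, stood at 177, 298, 150, 207 and 148 CPM in WT 1 to 5 and at 132, 103, 132 and 170 CPM in the labelled libraries 1 to 4. *H2-Ab1*, its β chain, stood at 146, 231, 120, 155 and 108 CPM in WT and at 101, 74.3, 94.9 and 132 CPM in the labelled libraries. *H2-Eb1*, the β chain of the I-E molecule, stood at 160, 258, 135, 169 and 119 CPM in WT and at 118, 87.3, 121 and 158 CPM in the labelled libraries. In all of them WT replicate 2 was the highest and labelled library 2 the lowest mouse, and labelled library 4 lay above at least one WT mouse, so the groups overlapped. The log2 fold changes were -0.54 for *H2-Aa* (SE 0.21, adjusted p = 0.0728), -0.60 for *H2-Ab1* (SE 0.22, adjusted p = 0.0607) and -0.48 for *H2-Eb1* (SE 0.22, adjusted p = 0.126, all by edgeR). None passed, although DESeq2, run as an alternative, passed *H2-Aa* (adjusted p = 0.0347) and *H2-Ab1* (adjusted p = 0.0240). Without WT replicate 2 the differences shrank to -0.33, -0.38 and -0.25, in the same order.

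C57BL/6 mice carry a defective I-E α gene, so I-E protein is not expected on their cells although *H2-Eb1* is transcribed. The row for *H2-Ea-ps*, the α gene, held 0, 3, 0, 1 and 0 counts in WT 1 to 5 and 1, 0, 1 and 0 counts in the labelled libraries, too few to test. *H2-Eb2*, a further β chain gene beside *H2-Eb1*, stood at 0.507, 4.98, 0.231, 0.441 and 0.586 CPM in WT and at 0, 0.231, 0.424 and 0.355 CPM in the labelled libraries. Its level in WT replicate 2 was 10.5 times the median of the other WT mice, and its log2 fold change of -2.44 (SE 1.06) did not pass (adjusted p = 0.0998 by edgeR). Without that mouse it was -0.85 (adjusted p = 0.335 by edgeR).

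*Cd74* (gene identifier 16149), the invariant chain, lies apart from the other genes on chromosome 18, from 60803849 to 60812652 of GRCm38, and was the most abundant of them. It stood at 343, 585, 290, 380 and 274 CPM in WT 1 to 5 and at 237, 181, 218 and 308 CPM in the labelled libraries 1 to 4. Labelled library 4 was above WT replicates 3 and 5, and the other labelled libraries were below every WT mouse. *Cd74* fell by 0.67 on the log2 scale (SE 0.23, adjusted p = 0.0439 by edgeR). The call was lost without WT replicate 2 (-0.43, adjusted p = 0.0664 by edgeR) and passed in 3 of the 9 fits that left out 1 mouse.

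The peptide exchange chains had log2 differences close to those of the classical chains, with smaller standard errors. *H2-DMa* stood at 12.2, 16.9, 10.5, 12.6 and 10 CPM in WT and at 8.76, 6.70, 6.86 and 10.5 CPM in the labelled libraries. *H2-DMb1* stood at 20.7, 28.0, 18.9, 22.9 and 23.1 CPM in WT and at 17, 14.6, 15.3 and 19.4 CPM in the labelled libraries. Labelled library 4 again reached into the WT range for both, and the other labelled libraries did not. *H2-DMa* fell by 0.60 (SE 0.18, adjusted p = 0.0299 by edgeR) and *H2-DMb1* by 0.46 (SE 0.13, adjusted p = 0.0185 by edgeR) on the log2 scale. *H2-DMb1* passed in 7 of the 9 fits that left out 1 mouse, among them the one without WT replicate 2 (-0.36, adjusted p = 0.0401 by edgeR), and *H2-DMa* passed in 3 of 9 and not without WT replicate 2 (-0.45, adjusted p = 0.0574 by edgeR).

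Reads of the length sequenced, 75 bases, can match more than one gene here. Of the stretches of 75 bases in *H2-DMb1* transcripts, 15.8% also occur in *H2-DMb2*, the neighbouring β chain gene, and 7.46% of those in *H2-DMa* occur in *Brd2*, which overlaps it on the other strand. *H2-DMb2* stood at 0.869, 4.82, 1.08, 1.14 and 1.25 CPM in WT and at 0.666, 0.277, 0.381 and 0.608 CPM in the labelled libraries, well under *H2-DMb1*. It fell by 1.89 on the log2 scale (SE 0.58, adjusted p = 0.0287 by edgeR) with separate groups, and by 1.13 without WT replicate 2 (adjusted p = 0.0195 by edgeR).

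The inhibitor chains, which are best known from B cells, had fitted fold changes close to that of *Ciita*, and of the 2 chains only the β chain passed. *H2-Ob* stood at 5.43, 16.1, 3.86, 5.10 and 4.45 CPM in WT and at 2.1, 1.39, 3.22 and 3.40 CPM in the labelled libraries. WT replicate 2 was 3.36 times the median of the other WT mice, and the lowest WT mouse was above the highest labelled library. *H2-Ob* fell by 1.47 on the log2 scale (SE 0.46, adjusted p = 0.0311 by edgeR) and by 0.89 without WT replicate 2 (adjusted p = 0.0305 by edgeR), and it passed in 6 of the 9 fits that left out 1 mouse. *H2-Oa* rested on few reads, with 36, 103, 18, 36 and 34 counts in WT and 17, 12, 9 and 23 counts in the labelled libraries. WT mice averaged 1.76 ± 1.36 CPM (SD, n = 5) and labelled libraries 0.674 ± 0.340 CPM (SD, n = 4), and labelled library 4 lay above WT replicate 3. Its log2 fold change of -1.39 (SE 0.53) did not pass (adjusted p = 0.0646 by edgeR), nor did that of -0.79 without WT replicate 2 (adjusted p = 0.122 by edgeR). For *H2-Oa*, 11.8% of the stretches of 75 bases are shared with a gene that overlaps it on the other strand.

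Read together, 5 of the 9 genes passed as lower and 0 as higher, beside 19.3% and 14% of all genes. At an unadjusted p under 0.05 the counts were 8 and 0, beside 3933 and 3292 of all 16329 genes. DESeq2 passed 8 and 0, all but *H2-Eb1* as lower, beside 3204 and 2831 of all genes. The median log2 fold change of the 9 genes was -0.60, against 0.01 over all genes, and -0.43 without WT replicate 2. The groups were separate for 2 of the 9 genes, beside 17.5% of all genes. The number that passed ranged from 1 to 7 over the fits that left out 1 mouse. It was 3 without WT 1, 2 or 4, 6 without WT 3 or 5, 2 without labelled library 1, 1 (*Ciita*) without labelled library 2 or 3, and 7 without labelled library 4.

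**Figure D2:**
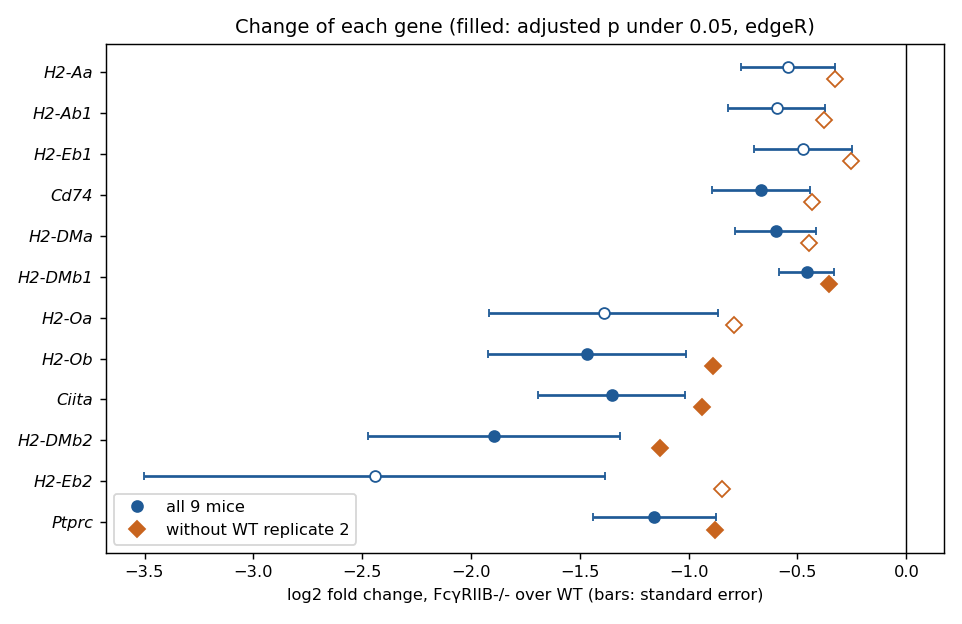
Fitted log2 fold change, FcγRIIB-/- over WT, of the 9 genes, the β chain genes *H2-DMb2* and *H2-Eb2*, and *Ptprc*, with bars for the standard error. Circles are the fit with all 9 mice and diamonds the fit without WT replicate 2, filled where the adjusted p is under 0.05. Every circle lies below 0 and every diamond lies closer to 0 than its circle.

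Ratios of counts within a library remove what changes both genes of a pair by the same factor. They do not remove a change in the mix of cell types that express them, which was not measured. Of 10 ratios compared between the genotypes, none passed after Benjamini-Hochberg adjustment over the 10 (two-sided exact permutation tests, 2 unadjusted p under 0.05). The smallest p these permutation tests allow is 0.00794, which the adjustment over 10 ratios raises to 0.0794 for a ratio that reaches it alone. No ratio could thus pass on its own, even with fully separate groups, so the lack of a pass does not show that the ratios were unchanged. The ratio of *H2-Eb1* to *H2-Ab1* had the smallest SD of the 10 in WT. On the log2 scale it was 0.133, 0.161, 0.169, 0.130 and 0.144 in WT 1 to 5 and 0.224, 0.233, 0.353 and 0.258 in the labelled libraries 1 to 4. Every labelled library was above every WT mouse, WT replicate 2 included, by a mean of 0.12 (exact permutation p = 0.00794, adjusted p = 0.0794). *Cd74* to *H2-Ab1* differed by -0.06 (exact permutation p = 0.0714), *H2-Aa* to *H2-Ab1* by 0.06 (p = 0.230) and *H2-DMa* to *H2-Ab1* by -0.02 (p = 0.778), each with overlapping groups.

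The ratio of *H2-Ob* to *H2-DMb1*, the β chains of the inhibitor and of the exchange factor, was lower by 0.87 on the log2 scale in the labelled libraries (exact permutation p = 0.0397, adjusted p = 0.198). That of *H2-Oa* to *H2-DMa*, the corresponding α chains, was lower by 0.61 (exact permutation p = 0.159, adjusted p = 0.265), and WT replicate 2 was the highest mouse in both. Without it the differences were -0.59 and -0.35. The ratio of *Ciita* to *H2-Ab1*, added after the fold changes had been seen, averaged -3.91 ± 0.28 over WT mice (SD, n = 5) and -4.59 ± 0.24 over labelled libraries (SD, n = 4). The groups were separate, the difference was -0.68, and without WT replicate 2 it was -0.56. Since it was chosen for that difference, it is given with no test.

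**Figure D3:**
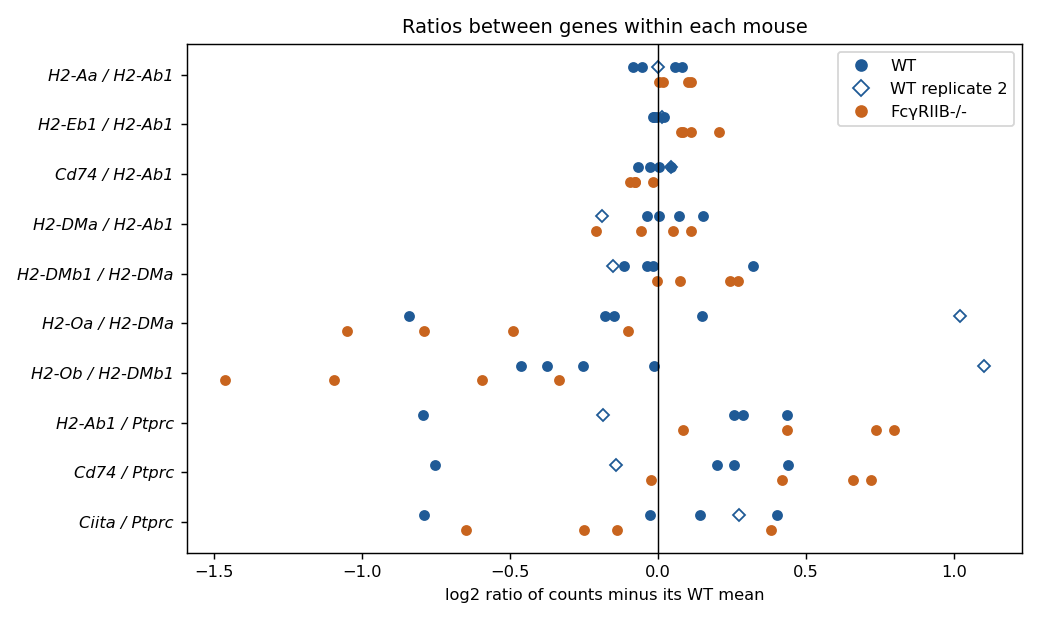
The 10 log2 ratios of counts within a library, each minus its WT mean, with 1 point per mouse and the open diamond for WT replicate 2. The *H2-Eb1* to *H2-Ab1* points of the libraries labelled FcγRIIB-/- all lie to the right of the WT points, and those of the other ratios overlap.

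Against *Ptprc*, the CD45 gene carried by all nucleated blood cells, the class II genes were not shown to differ. *Ptprc* stood at 54.5, 117, 44.0, 51.1 and 83.5 CPM in WT and at 27.2, 24.5, 40.0 and 34.0 CPM in the labelled libraries, with separate groups, and fell by 1.16 on the log2 scale (SE 0.28, adjusted p = 0.0110 by edgeR). The log2 ratio of *H2-Ab1* to *Ptprc* averaged 1.16 ± 0.50 over WT mice (SD, n = 5) and 1.67 ± 0.33 over labelled libraries (SD, n = 4), a difference of 0.51 (exact permutation p = 0.127). That of *Cd74* to *Ptprc* differed by 0.45 (exact permutation p = 0.151) and that of *Ciita* to *Ptprc* by -0.17 (exact permutation p = 0.587). All of them had overlapping groups, so no change relative to *Ptprc* was resolved in either direction. Without WT replicate 5 the differences were 0.31 for *H2-Ab1*, 0.26 for *Cd74* and -0.36 for *Ciita*, and that of *Ciita* was between -0.36 and -0.002 over the fits that left out 1 mouse.

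Markers of cell types that use class II moved with these genes, and their part in the result was not tested. The counts of each marker list stand beside 19.3% lower and 14% higher over all genes. Of 12 B cell markers, 10 passed as lower and 0 as higher, with a median log2 fold change of -2.13, among them *Cd79a* (-2.74) and *Cd79b* (-1.96), which form the signalling part of the B cell receptor, and 10 passed without WT replicate 2. Their summed level was 47.7 to 175 CPM in WT and 11.1 to 32.2 CPM in the labelled libraries. The sum in WT replicate 2 was the highest, at 2.67 times the median of the other WT mice, beside 1.81 times for the summed 9 class II genes. All 7 markers of B cell precursors passed as lower with a median of -2.55, and their sum was not raised in WT replicate 2 (0.93 times). None of the markers was at 0 in all mice.

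Dendritic and macrophage markers were closer in size to the class II genes. Of 11 dendritic cell markers, 6 passed as lower and 0 as higher, beside 19.3% and 14% of all genes. Their median log2 fold change was -0.83. *Siglech* fell by 1.67 and passed in all 9 fits that left out 1 mouse. *Flt3*, a growth factor receptor of their precursors, fell by 1.30. *Clec9a*, a receptor for dead cells, fell by 1.21 (-1.13 and not passed without WT replicate 2) and passed in 2 of those 9 fits. *Itgax*, the CD11c gene, was at -0.16 (adjusted p = 0.713 by edgeR). Of the 11 markers, 10 had a negative fold change. *Batf3* went the other way, at 0.76, with every labelled library above every WT mouse. It did not pass in edgeR (adjusted p = 0.0686) but passed as higher in DESeq2 (adjusted p = 0.0351). Of 11 macrophage markers, 4 passed as lower and 0 as higher, beside the same shares of all genes, with a median of -0.25. *Mrc1*, *Csf1r*, *Cd68* and *Adgre1* fell by 0.93, 0.86, 0.63 and 0.60, and the complement genes *C1qa* (-0.06), *C1qb* (0.20) and *C1qc* (0.04) did not pass. The summed dendritic markers were 140 to 194 CPM in WT and 125 to 140 CPM in the labelled libraries, and the summed macrophage markers 438 to 636 and 388 to 473 CPM. In WT replicate 2 the sums were 1.27 and 1.36 times the median of the other WT mice. *Fscn1* made up most of the dendritic sum, at 112 CPM on average in WT and 101 CPM in the labelled libraries. It did not pass (-0.15), and in WT replicate 2 it was 1.18 times the median of the other WT mice.

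Other blood lineages had markers with larger changes. All 4 monocyte markers and all 9 neutrophil markers passed as lower, with medians of -1.33 and -3.14. In WT replicate 2 the monocyte sum was the highest of the WT mice, at 1.61 times the median of the others, and the neutrophil sum was 0.806 times it. Among 8 T cell markers only *Cd4* passed as lower (-1.38, adjusted p = 0.0363 by edgeR), none did without WT replicate 2, and the T cell sum of that mouse was 3.01 times the median of the other WT mice. Of 4 plasma cell markers tested, *Jchain*, which joins the units of polymeric antibodies, passed as lower (-3.75, and -2.00 without WT replicate 2, where it was 16.3 times the median of the other WT mice), with no adjusted p from DESeq2, and the plasma cell sum of WT replicate 2 was 2.53 times that median. Over WT mice, *Sdc1* had the highest mean of the plasma cell markers, at 308 CPM, and it did not pass (-0.16). WT replicate 2 thus stood high in class II, B cell, T cell, plasma cell and monocyte genes and not in neutrophil or B cell precursor genes. Its summed bone and tooth markers were also the highest of the WT mice, at 1.42 times the median of the others. The same mouse was highest in the dendritic and macrophage sums. Its summed level of skeletal muscle markers was 0.451 times the median of the other WT mice. All 4 erythroid markers passed as lower, with a median of -3.80. Among Langerhans cell markers *Cd207*, langerin, did not pass (0.13) and *Epcam*, an adhesion gene also of other epithelia, rose by 0.57. Tissue markers moved as well. The enamel genes *Amelx* and *Ambn* rose by 1.34 and 1.13, the muscle genes *Tnnt3* and *Ckm* by 1.14 and 0.98, and *Krt10*, a keratin of the upper epithelial layers, fell by 4.8, and their part in the class II result was not tested.

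**Figure D4:**
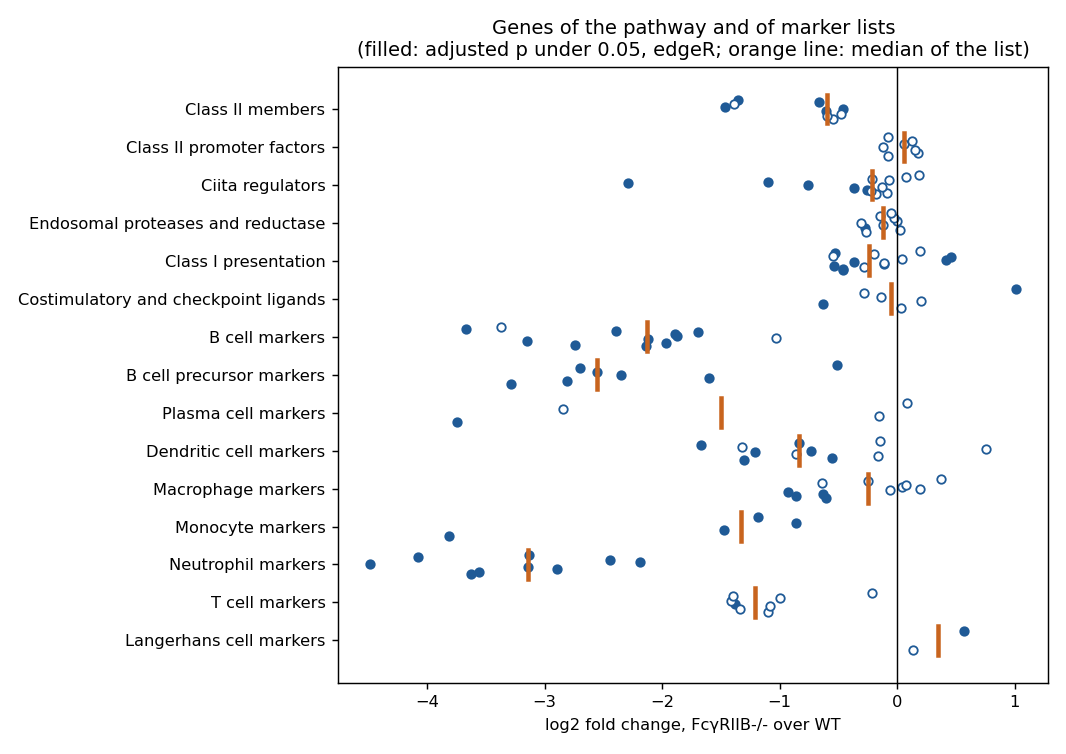
Fitted log2 fold change, FcγRIIB-/- over WT, of the 9 class II genes, further genes of the pathway and markers of cell types, with 1 point per gene, filled where the adjusted p is under 0.05, and an orange line at the median of each list. The class II genes lie between -1.47 and -0.46, the promoter factors lie around 0, and the B cell, monocyte and neutrophil medians lie further to the left than the class II median.

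No change was called for the factors that hold Ciita on class II promoters. None of *Rfx5*, *Rfxank* and *Rfxap*, the RFX complex of the X box, *Nfya*, *Nfyb* and *Nfyc*, the NF-Y subunits of the Y box, or *Creb1*, which also binds there, passed in edgeR. The log2 fold changes of these 7 genes lay between -0.12 and 0.18 with a median of 0.06, DESeq2 passed 0 of them, and 1 (*Rfxap*, 0.16) had an unadjusted p under 0.05. Among 13 regulators of *Ciita*, 5 passed as lower and 0 as higher, beside 19.3% and 14% of all genes. The number lower was 3 with no filter on low counts and 2 to 5 with 1 mouse left out. *Irf4*, a factor of activated B cells, plasma cells and dendritic cells, fell by 2.29 (SE 0.49, adjusted p = 0.00617 by edgeR), *Irf8*, its relative in dendritic cells and B cells, by 1.1 (SE 0.22, adjusted p = 0.00423 by edgeR) and *Spi1*, the PU.1 gene, by 0.76 (SE 0.21, adjusted p = 0.0208 by edgeR). Genes of the interferon-γ route to *Ciita* had smaller fold changes. *Jak2* fell by 0.26, close to the threshold (adjusted p = 0.0421 by edgeR, passed in 1 of the 9 fits that left out 1 mouse), and *Irf1* (-0.13), *Ifngr1* (-0.18) and *Ifngr2* (-0.08) did not pass. Without WT replicate 2, 3 of the 13 passed.

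Few genes of the endosomal part of the pathway passed. Of 9 proteases and related genes, 1 passed as lower and 0 as higher, beside 19.3% and 14% of all genes. It was *Ctsb* (-0.28, adjusted p = 0.0458 by edgeR). The call held in 0 of the 9 fits that left out 1 mouse, although DESeq2 passed the gene (adjusted p = 0.0123). *Ctss*, the cathepsin that trims the invariant chain, was at -0.27 (adjusted p = 0.436 by edgeR) and *Ifi30*, the thiol reductase GILT, at -0.15 (adjusted p = 0.524 by edgeR). The ligases that remove class II from the surface did not pass in edgeR either, with *Marchf1* at -0.70 (adjusted p = 0.110) and *Marchf8* at -0.12 (adjusted p = 0.142), and DESeq2 passed 0 of the 2, with 1 at an unadjusted p under 0.05. Of 6 costimulatory and checkpoint ligands, 1 passed as lower and 1 as higher, beside 19.3% and 14% of all genes. *Cd86* fell by 0.63 (adjusted p = 0.0333 by edgeR) and *Pdcd1lg2*, the PD-L2 gene, rose by 1.01 (adjusted p = 0.0459 by edgeR). These calls held in 3 and 2 of the 9 fits that left out 1 mouse.

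Class I presentation, which shows peptides from the cytosol in nearly all cells, had calls in both directions. Of its 14 genes, 5 passed as lower and 2 as higher, beside 19.3% and 14% of all genes, with a median of -0.24. The share that passed as higher was thus near that over all genes. With 1 mouse left out, 2 to 7 passed as lower and 0 to 3 as higher. The heavy chains *H2-K1* and *H2-D1* each fell by 0.46, and *Tap1*, *Psmb9* and *Erap1*, for peptide transport, cutting and trimming, by 0.53, 0.53 and 0.37. The chaperones *Calr* and *Pdia3*, used by many other proteins, rose by 0.42 and 0.46. They passed in 3 and 5 of the 9 fits that left out 1 mouse. *Nlrc5*, the class I counterpart of *Ciita*, was at -0.54 (adjusted p = 0.0695 by edgeR), and *B2m* at -0.28 (adjusted p = 0.162 by edgeR). Without WT replicate 2, *H2-D1* and *Tap1* passed as lower, *H2-K1*, *Psmb9* and *Erap1* did not, and 3 of the 14 passed as higher.

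The genes most like the class II group from mouse to mouse were ranked by Pearson's r over the 9 mice with the mean of each genotype removed, among 12952 genes. The 10 highest were *Gimap1* (0.967), *Psmb9* (0.950), *Unc93b1* (0.948), *Vrk3* (0.947), *Tnfaip8l2* (0.946), *Itgb7* (0.945), *Rom1* (0.942), *Epsti1* (0.940), *Creg2* (0.934) and *Il10rb* (0.933). Without WT replicate 2, r lay between 0.805 and 0.928 for the same 10 genes. Their own changes between genotypes differed, with *Itgb7* falling by 1.20 (adjusted p = 0.00578 by edgeR) and *Gimap1* at -0.20 (adjusted p = 0.483 by edgeR). The values share libraries and depth, so they describe likeness within these 9 mice only.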

How the data were processed

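Poly(A) RNA of mandibles was sequenced as directional libraries with single reads of 75 bases. The authors removed adaptors with Trim Galore, aligned to mm10 with HISAT (02.1.0 in the submitters' processing notes) and used featureCounts to count reads on genes. The deposited counts are raw, with no normalization. The gene annotation and strand setting are not given in the sources used here, so genes overlapping on opposite strands are uncertain. The table held 1 further column that matches no sample, and it was not used. Groups and replicate numbers come from the labels. The labels do not state that each library is a separate mouse, which was taken from the study's numbers of mice, and p-values measure the spread between these libraries only.

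The counts were analysed with edgeR 4.0.16 in R 4.3.3, with filterByExpr (minimum count 10), TMM normalization and a quasi-likelihood test for genotype alone, adjusted by Benjamini-Hochberg at 0.05. The standard error is the size of the log2 fold change divided by the root of F. Ratios used a prior count of 0.5. RPKM used exon lengths of GENCODE for mm10. DESeq2 1.42.0, other normalizations, filters and thresholds, a replicate block and leaving out each mouse were alternatives. The test was tested on simulated counts, and no pair of libraries was near-identical. The class II genes, the lists and the ratios were chosen with earlier results of these data known. The text names the class II genes, related chain genes, *Fcgr2b*, *Ptprc*, up to 4 genes past the threshold per list and direction with members that did not pass (some genes under this rule are not reported here), and the 10 genes most alike over mice whose log2 CPM averaged 2 or more.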

Additional observations from a re-analysis of the deposited data

Results flagged for a closer look

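In 48 sets of 4 or 5 values checked for a single mouse standing apart (by Dixon's ratio of gap to range), 6 were found, where chance gives about 1 in 20. WT replicate 2 stood above the other WT mice in the log2 CPM of *H2-Ob* (0.761), *H2-DMb2* (0.795) and *H2-Eb2* (0.727) and in the log2 ratio of *H2-Ob* to *H2-DMb1* (0.716). WT replicate 5 stood above the other WT mice in the log2 ratio of *H2-DMb1* to *H2-DMa* (0.719). Labelled library 4 stood above the other libraries labelled FcγRIIB-/- in the log2 CPM of *Fcgr2b* (0.887).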

How the results depend on the processing

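The 9 genes kept a negative fold change in each fit run. The number passing as lower was 5 in the reported fit, 8 with DESeq2, 2 with a limit of 1 on the absolute log2 fold change, 0 at an adjusted p under 0.01 and 1 to 7 with 1 mouse left out. Over all genes, 3144 lower and 2289 higher became 1763 and 869 at 0.01 and 1069 and 181 with the fold limit. With DESeq2 they were 3204 and 2831, and with 1 mouse left out they ranged from 2521 to 2771 and from 1781 to 2292. *Cd74* was also lost with upper-quartile normalization (adjusted p = 0.0525 by edgeR). The log2 ratio of *H2-DMa* to *H2-Ab1* changed sign with 1 mouse left out, from -0.0707 to 0.036. A stricter limit passes fewer genes by construction, and the cause of the other changes was not tested.

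Same-numbered mice are different animals, and the labels give no pairing between them. Their deviations correlated at 0.0969, 0.0276, -0.114 and -0.0739 for numbers 1 to 4. These values were not compared with those of unlike-numbered mice, so they cannot show whether same-numbered libraries were handled together. With the replicate block, without WT replicate 5, 2 of the 9 genes passed, *H2-DMa* and *Ciita*, and *H2-DMb1* (-0.421, adjusted p = 0.0578), *H2-Ob* (-1.35, adjusted p = 0.0857) and *Cd74* (-0.707, adjusted p = 0.0528 by edgeR) did not. *H2-Oa* and *H2-Eb2* rest on few reads, and *H2-Ea-ps* on too few to test.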
